A study of Homo sapiens with 18 samples.

Results

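OVCAR8 is an established human ovarian cancer line that the study uses as a model of high-grade serous carcinoma, and the values below compare OVCAR8 cells taken from a 3D culture of the omentum with OVCAR8 cells grown on plastic. The comparison rests on the 6 libraries labelled OVCAR8, 3 from the 3D culture and 3 from plastic, out of 18 libraries of 3 ovarian cancer lines in the series. For the 3D culture, primary fibroblasts from human omentum were embedded in collagen I and covered with primary mesothelial cells, and after 24 h GFP-labeled cancer cells were placed on top, left for 48 h and sorted for GFP by flow cytometry. Control cells grew on bare dishes and were sham sorted, so both cultures went through the sorter, and the labels give the same passage range for both. The omental cells are primary cells from donors and OVCAR8 is a single line, so the libraries sample cultures of 1 line and not patients.

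Type I interferons are secreted proteins that bind a receptor of the chains IFNAR1 and IFNAR2, activate the kinases JAK1 and TYK2, and through factors such as STAT2 and IRF9 switch on a set of antiviral genes in almost any cell. The mitochondrial genome encodes the ribosomal and transfer RNAs of the organelle and core subunits of the respiratory chain, and it is transcribed as long RNAs that are cut at the transfer RNAs. The omentum is the fatty apron of the abdomen to which ovarian cancer commonly spreads, and its surface is a mesothelium over fibroblasts and collagen.

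Replicates carry the numbers 4, 61 and 62 of their labels, and levels of single genes are given in that order as CPM, which are read counts divided by the TMM-scaled library size and brought to a common depth. The 6 libraries held between 29988250 and 43142540 counted reads. The libraries did not spread evenly. The 3D libraries 61 and 62 differed from each other by little more than sampling noise (chi-square per degree of freedom of 2.6), while each differed from 3D replicate 4 far more (42.4 and 39.5), and the headers inside their files name them as sets of 1 number. On the same measure plastic replicates 4 and 62 differed by 2.93, 4 and 61 by 8.64, and 61 and 62 by 9.28. The close pair on plastic was thus 4 and 62, not 61 and 62 as in 3D. On the first principal component, which held 72.6% of the variance, 3D replicate 4 lay at -7.49, between 3D replicates 61 and 62 (-77.1 and -68.4) and plastic (45.9 to 53.8). P-values below may therefore rest partly on technical replicates. In bulk RNA, a larger share of a cell type and more RNA per cell cannot be told apart, which touches every result below.

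The labelled cell type was checked against marker genes. PAX8, a transcription factor of the Müllerian lineage kept by serous carcinomas, stood at 66.3, 69.7 and 69 CPM in 3D and 57.4, 63.1 and 55.7 CPM on plastic, with no overlap and no call (log2 fold change 0.22, adjusted p = 0.218, and 0.0399 when the 6 OVCAR8 libraries were fitted alone). The keratin KRT8 stood at 2313, 1379 and 1397 CPM in 3D and 1736, 1763 and 1702 CPM on plastic, and the epithelial adhesion protein EPCAM at 17.9, 17.7 and 17 CPM in 3D and 15.3, 18.1 and 15.5 CPM on plastic. KRT8 and EPCAM overlapped between the cultures. Markers of other cells were mixed. The 17 fibroblast markers summed to 741, 2950 and 2070 CPM in 3D and 776, 720 and 709 CPM on plastic, a sum of which COL1A1, a collagen chain that OVCAR8 itself expresses, made up most on plastic and in 3D replicate 4. The 11 of these markers under 1 CPM on plastic summed to 24.4, 1470 and 881 CPM in 3D and 1.51, 1.15 and 1.41 CPM on plastic, and 10, 8 and 11 of them stood above the highest plastic library in 3D replicates 4, 61 and 62. The sum of these 11 was thus above plastic in all 3 of the 3D libraries and lowest in replicate 4. The 11 were picked by a low level in the same plastic libraries, which itself favors a higher sum in 3D. The 14 mesothelial markers summed to 330, 369 and 375 CPM in 3D and 328, 282 and 313 CPM on plastic, and 3 of the 12 tested rose. Of the 14, 6 were under 1 CPM on plastic, a choice made on the same plastic libraries. They summed to 0.841, 5.29 and 3.2 CPM in 3D and 1.14, 0.756 and 0.865 CPM on plastic. The highest plastic library was exceeded by 2, 5 and 4 of them in 3D replicates 4, 61 and 62. Their sum in 3D replicate 4 was within the range of plastic. Of 8 leukocyte markers 7 stayed under 1 CPM in all 6 libraries, as did 5 of 6 adipocyte markers and 4 of 8 endothelial markers. All 3 leukocyte markers tested rose at least 2-fold. Among them was CD68, at 94.4, 81.8 and 81.7 CPM in 3D and 22.6, 22 and 20 CPM on plastic. Of 7 endothelial markers tested 2 rose at least 2-fold, 1 of them at 1 CPM or more on plastic. Neither of the 2 adipocyte markers tested was called. The part of these other cells in the results was not tested, except where a value below bears on it.

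Of 22023 genes tested with edgeR's quasi-likelihood test, 1654 (7.51%) rose and 731 (3.32%) fell in 3D OVCAR8 cells at a Benjamini-Hochberg adjusted p under 0.05. At least 2-fold changes were 1130 rises (5.13%) and 159 falls (0.722%). Among the 15270 genes that averaged at least 1 CPM on OVCAR8 plastic, and so had a measured level in the line itself, 975 (6.39%) rose and 691 (4.53%) fell, 466 (3.05%) and 122 (0.799%) of them by at least 2-fold. Of these 588 genes, 565 showed no overlap between the 3 libraries of each culture, but a called 2-fold change favors such separation. The share without overlap over all genes is not given here. The calls depended on single libraries: 272 of the rises and 75 of the falls held without any 1 of the 6 libraries, and without 3D replicate 4 the counts were 739 and 212. Among the 6753 genes under 1 CPM on plastic, 664 (9.83%) rose at least 2-fold and 37 (0.548%) fell, but these genes passed the filter on low counts largely through the culture where they were high. The median log2 fold change was 0.017 over all genes and -0.038 over genes at 1 CPM or more on plastic. Against the mean response of the other lines, Kuramochi and OVCAR4, the response of OVCAR8 differed for 1703 genes (7.73%) by a test of the difference itself. That count was 762 without 3D replicate 61, 694 without 3D replicate 62, 737 without plastic replicate 4, 1083 without plastic replicate 61 and 637 without plastic replicate 62.

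Calls fell unevenly over gene lists. The antiviral effectors and the genes of MHC class I presentation rose almost as a whole, the genes of the mitochondrial genome changed as a whole, sterol synthesis and mitotic genes fell in part, and lists such as the proteasome core, HOX genes, AP-1 genes and epithelial junctions held no call among members at 1 CPM or more on plastic.

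**Figure D1:**
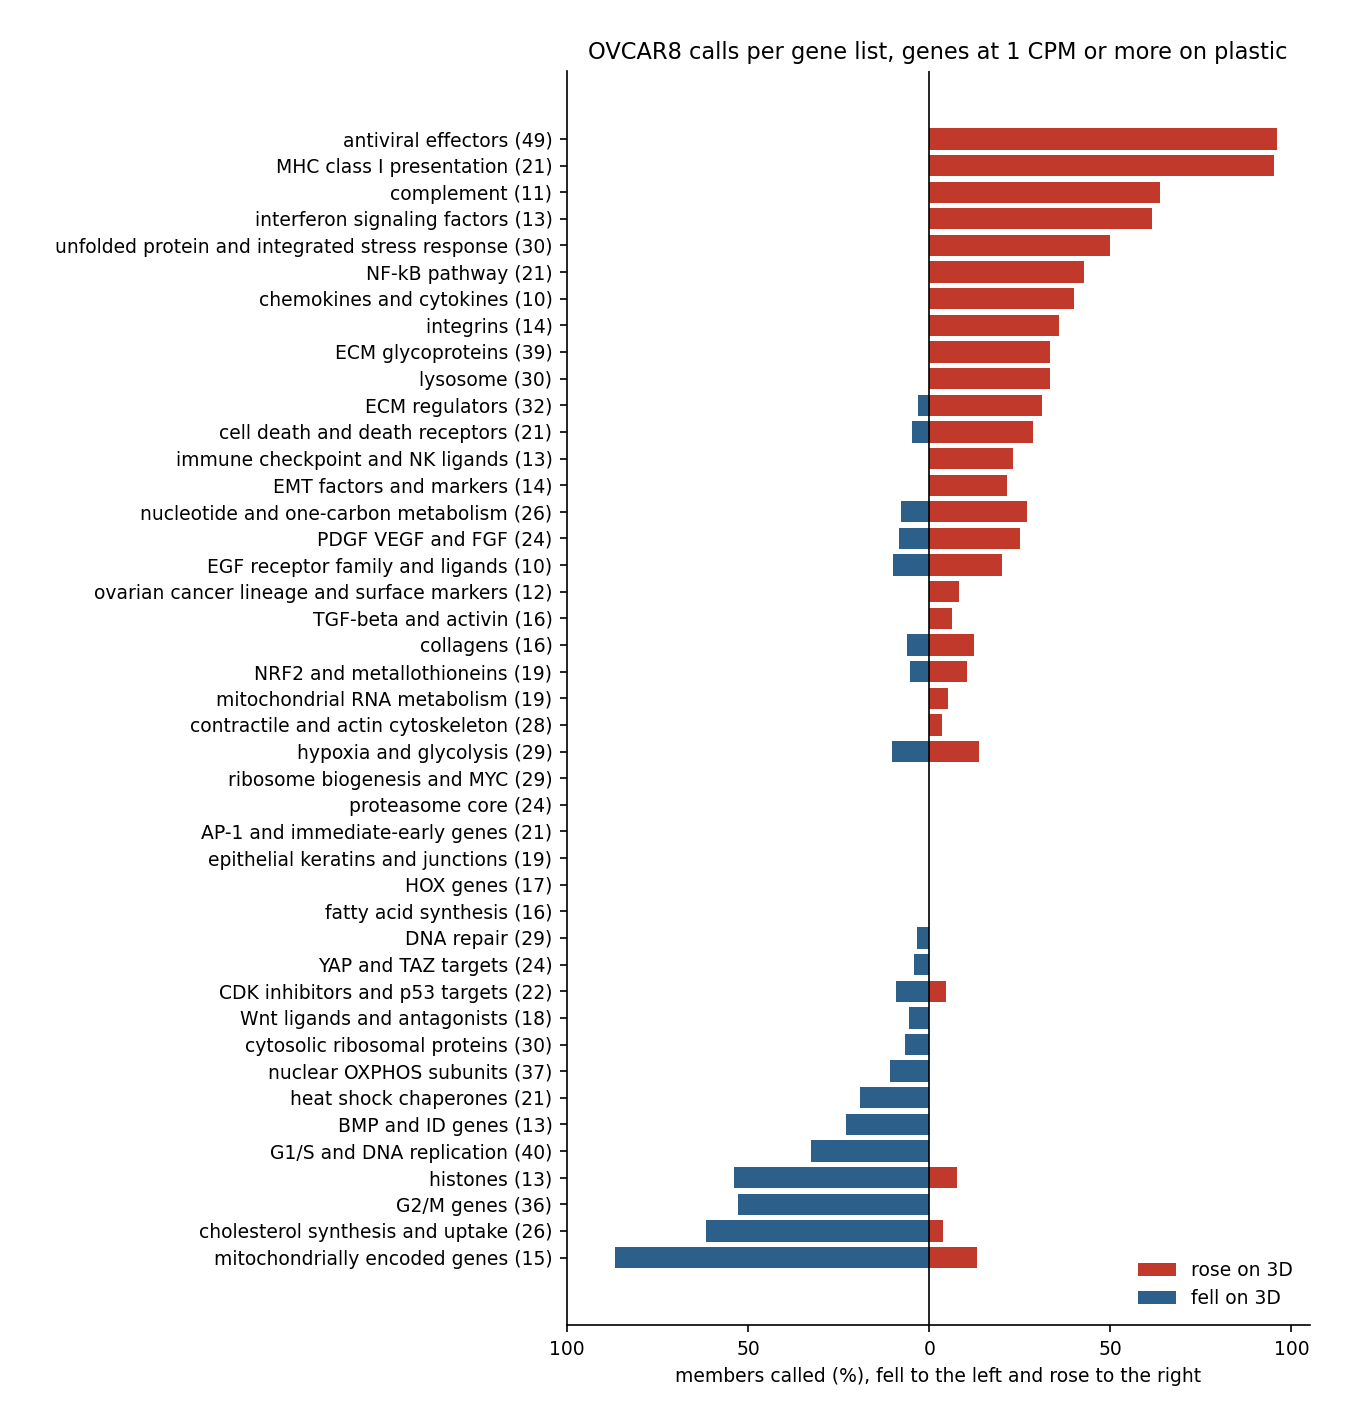
Share of the members of each gene list called in OVCAR8 3D cells, among members at 1 CPM or more on plastic (number in parentheses), in percent, with rises drawn to the right and falls to the left of 0. The 49 antiviral effectors and 21 genes of MHC class I presentation stand at the top, and the 15 mitochondrially encoded mRNAs and ribosomal RNAs at the bottom. Lists with fewer than 10 such members are not drawn.

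The interferon response was the broadest rise. Of 62 antiviral effectors tested, 60 rose and none fell, with a median log2 fold change of 3.13 against 0.017 over all genes. Among the 49 at 1 CPM or more on plastic, 47 rose, 46 by at least 2-fold, and 45 calls held without any 1 library. Summed over the list the level was 11600, 8210 and 8320 CPM in 3D and 1210, 1250 and 1200 CPM on plastic. The sum was highest in 3D replicate 4. The fibroblast markers under 1 CPM on plastic, a set picked by that plastic level, summed to 24.4 CPM there, above plastic. Their part in the result was not tested. For 56 of the 62 genes the response differed from that of the other lines.

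OAS3, an enzyme that makes the second messenger for RNA decay by RNase L, stood at 424, 212 and 219 CPM in 3D and 2.39, 2.33 and 2.31 CPM on plastic (log2 fold change 6.92 ± 0.83 SE, adjusted p = 9.28e-05). MX1, a GTPase that blocks virus particles, stood at 483, 269 and 264 CPM in 3D and 2.56, 3.19 and 2.74 CPM on plastic (6.90 ± 0.69, adjusted p = 1.32e-05). In both genes 3D replicate 4 was the highest library, and the lowest 3D library was far above the highest plastic library. IFI27, an interferon-inducible membrane protein, stood at 438, 504 and 506 CPM in 3D and 4.63, 5.42 and 5.19 CPM on plastic (6.57 ± 0.36, adjusted p = 1.95e-09). IFI6, an antiviral membrane protein, stood at 1476, 1042 and 1137 CPM in 3D and 14, 15.7 and 9.98 CPM on plastic (6.53 ± 0.56, adjusted p = 1.9e-06). IFITM1, which blocks virus entry, stood at 276, 233 and 235 CPM in 3D and 4.89, 5.16 and 4.44 CPM on plastic (5.68 ± 0.35, adjusted p = 8.67e-09). No library of one culture reached a library of the other for these genes, but the rule for the largest rises took only genes free of overlap.

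ISG15, a ubiquitin-like modifier, stood at 488, 325 and 343 CPM in 3D and 32.7, 19.9 and 31.4 CPM on plastic, and IFIT1, which binds foreign RNA ends, at 450, 204 and 207 CPM in 3D and 19.7, 12.2 and 20.5 CPM on plastic. Their log2 fold changes were 3.78 and 4.04. IFIT3, its partner, stood at 249, 135 and 125 CPM in 3D and 15.4, 8.08 and 17 CPM on plastic (log2 fold change 3.65). PARP9 and its partner DTX3L, which act together on ubiquitin and ADP-ribose, rose by 5.33 and 4.26, PARP14 by 4.71 and PARP10 by 4.05 on the log2 scale. HELZ2, a helicase, stood at 243, 197 and 216 CPM in 3D and 29.8, 33.1 and 25.3 CPM on plastic (2.90). Further large rises on the log2 scale were those of TRANK1 (4.94), SAMD9L (4.49), APOL6 (3.85), SP110 (3.62), GBP1 (3.47), HERC6 (3.45), IFI35 (3.45) and SHFL (3.39). TRANK1 and PARP10 are not on the list of effectors. A pair of members near silence on plastic were counted there only a few times. OAS1 had 506, 291 and 316 counts in 3D and 0, 2 and 0 counts on plastic, a ratio of 446 with a 95% exact interval for counting error of 123 to 3690. RSAD2 had 59, 422 and 326 counts in 3D and 0, 0 and 1 on plastic, a ratio of 647 (116 to 25600) and was lowest in 3D replicate 4 among the 3D libraries. The 2 effectors that were not called were HERC5, the ligase for ISG15, at 66.5, 40.5 and 38.6 CPM in 3D and 21.3, 17 and 21.9 CPM on plastic (log2 fold change 1.28, adjusted p = 0.0526, and 0.0101 by DESeq2), and the nucleotidase NT5C3A at 28.7, 18.5 and 18.7 CPM in 3D and 21.4, 19.3 and 23.7 CPM on plastic (0.03, adjusted p = 0.946).

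The promoters of these genes show the letters that the complex holding STAT2 and IRF9 is known to read. The stretches below lie before the start of 5 of the effectors just described, chosen because they hold a match, in RefSeq on GRCh38.p14, each written 5′ to 3′ on the strand of the gene, with capitals marking each match to GAAANNGAA or its reverse complement TTCNNTTTC, overlapping matches joined. ISG15 is on chromosome 1 (chr1:1013372-1013416, plus strand), IFI6 on chromosome 1 (chr1:27672265-27672360, minus strand), IFIT1 on chromosome 10 (chr10:89392496-89392541, plus strand), IFI27 on chromosome 14 (chr14:94110617-94110661, plus strand) and IFITM1 on chromosome 11 (chr11:313988-314020, plus strand).
ISG15: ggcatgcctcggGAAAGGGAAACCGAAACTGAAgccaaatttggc
IFI6: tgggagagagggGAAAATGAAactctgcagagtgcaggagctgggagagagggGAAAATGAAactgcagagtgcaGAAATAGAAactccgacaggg
IFIT1: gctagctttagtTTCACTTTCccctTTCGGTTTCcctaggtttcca
IFI27: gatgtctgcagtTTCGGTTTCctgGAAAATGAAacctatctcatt
IFITM1: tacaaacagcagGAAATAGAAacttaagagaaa
ISG15 and IFI6 held 3 matches each, IFIT1 and IFI27 held 2 each and IFITM1 held 1. In ISG15 the 3 matches overlap in 1 run, while in IFI6 they stand apart. The match nearest to the start of the gene began 101 bases before it in ISG15, 93 in IFI6, 102 in IFIT1, 95 in IFI27 and 40 in IFITM1.

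Over the 300 bases from 250 before to 50 after the start, on both strands, 36 of 47 effectors with a promoter in the table (76.6%) held a match, against 2847 of 35116 promoters in all (8.11%) and 915 of 10635 (8.6%) for genes at 1 CPM or more on OVCAR8 plastic. Only the 35116 are single promoters, and the other counts here are of genes with a match in any of their promoters. Matches stood in 11 of 17 genes of MHC class I presentation (64.7%), in 4 of 8 of nucleic acid sensing and in 1 of 9 of the interferon signaling factors (11.1%). Of the genes at 1 CPM or more that rose at least 2-fold, 73 of 330 (22.1%) held a match, and outside the interferon and MHC class I lists 34 of 272 (12.5%) did. Of those that fell at least 2-fold, 7 of 58 (12.1%) held one. A match is only a run of letters, and binding was not measured.

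Among the signaling factors 8 of 14 rose, 6 by at least 2-fold, and none fell. STAT2 stood at 188, 159 and 165 CPM in 3D and 42.6, 42.2 and 40 CPM on plastic (log2 fold change 2.04 ± 0.20 SE, adjusted p = 2.24e-06), and IRF9 at 130, 117 and 115 CPM in 3D and 16.7, 19 and 16.7 CPM on plastic (2.79 ± 0.21, adjusted p = 5.36e-08). Both factors rose without overlap. IRF7, which amplifies interferon transcription, stood at 95.6, 63.4 and 73.2 CPM in 3D and 7.02, 6.11 and 6.06 CPM on plastic (3.60), BATF2 at 17.7, 13.8 and 12.3 CPM in 3D and 1.08, 1.05 and 1.01 CPM on plastic (3.80), and USP18, which removes ISG15 and dampens the receptor, at 77.8, 35.6 and 37.1 CPM in 3D and 2.3, 3.45 and 1.73 CPM on plastic (4.33). The kinase JAK1 stood at 130, 133 and 133 CPM in 3D and 128, 127 and 135 CPM on plastic, with overlapping groups (log2 fold change 0.02, adjusted p = 0.963).

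No ligand or receptor of the interferons was called among 7 tested, of which the 6 at 1 CPM or more on plastic were receptor chains. The only ligand tested was IFNE, with 3 counts on plastic and 11 in 3D. The other ligands listed did not pass the filter on low counts, and the interferon alpha genes were not listed. The lack of a call thus says little about ligands. IFNAR1 stood at 46.2, 38.6 and 37.2 CPM in 3D and 48.2, 46.6 and 52.3 CPM on plastic (log2 fold change -0.27, adjusted p = 0.156), and IFNAR2 at 15.7, 16.8 and 15.2 CPM in 3D and 14.7, 13.6 and 14 CPM on plastic (0.17, adjusted p = 0.378). Of 12 ligands and receptors listed, 3 had no count in any of the 6 libraries and 6 stayed under 1 CPM in all. Among the sensors of foreign nucleic acid 9 of 12 rose, and 6 of 9 at 1 CPM or more on plastic. IFIH1, a sensor of long double-stranded RNA, stood at 54.9, 32.3 and 33.3 CPM in 3D and 0.786, 1.12 and 0.606 CPM on plastic (5.59 ± 0.73 SE, adjusted p = 0.00016). RIGI, a sensor of RNA ends, stood at 175, 117 and 111 CPM in 3D and 20, 16.1 and 20.5 CPM on plastic (2.83), and the kinase EIF2AK2 at 306, 254 and 244 CPM in 3D and 68.8, 70.6 and 75.1 CPM on plastic (1.91). These sensors are themselves known interferon targets. IFI16 rose by 4.08, the ligase TRIM25 by 1.17 and the RNA-editing enzyme ADAR by 1.19 on the log2 scale. MAVS, the adaptor through which RIGI and IFIH1 signal, stood at 103, 117 and 109 CPM in 3D and 111, 109 and 110 CPM on plastic (0.00, adjusted p = 1). The DNA sensor CGAS stood at 54.3, 34.8 and 37.4 CPM in 3D and 62.9, 49.9 and 64.6 CPM on plastic (-0.49, adjusted p = 0.134), and its adaptor STING1 at 35, 37.4 and 36.6 CPM in 3D and 30.9, 39.5 and 31.8 CPM on plastic (0.09, adjusted p = 0.74). The adaptors and CGAS overlapped between cultures. Without 3D replicate 4, CGAS (-0.71, adjusted p = 0.0284) and IFNAR1 (-0.37, adjusted p = 0.0484) were called as lower.

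**Figure D2:**
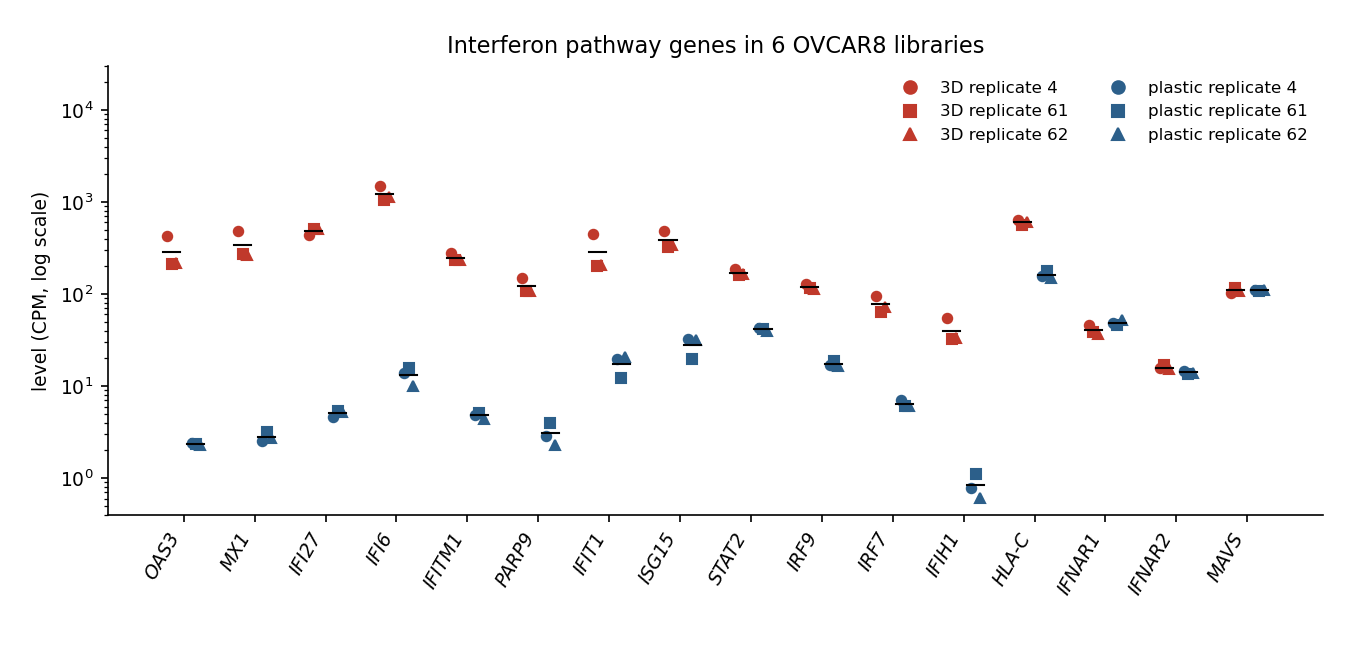
Level (CPM, log axis) of interferon pathway genes in each OVCAR8 library, 3D left of plastic for each gene, with a symbol for each replicate and a line at the mean of 3. The 3 3D libraries of OAS3 sit between 212 and 424 CPM and its 3 plastic libraries between 2.31 and 2.39 CPM, while IFNAR1, IFNAR2 and MAVS stay at like levels in both cultures.

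Genes of MHC class I presentation, which carry peptides from the inside of the cell to the surface, rose in 20 of 21 cases, 17 of them by at least 2-fold and 16 held without any 1 library, with a median log2 fold change of 1.49. B2M, the light chain, stood at 52.5, 110 and 88.7 CPM in 3D and 16.4, 18.5 and 18.6 CPM on plastic (2.23 ± 0.27 SE, adjusted p = 3.76e-05). HLA-C stood at 639, 562 and 601 CPM in 3D and 159, 176 and 151 CPM on plastic (1.89), and HLA-B at 1204, 1191 and 1235 CPM in 3D and 357, 377 and 348 CPM on plastic (1.75). Both heavy chains were nearly level across the 3D libraries, while B2M was lowest in 3D replicate 4. The class I heavy chains are near-identical in sequence, so reads may have been split among them. PSMB9, a subunit of the immunoproteasome, stood at 26.6, 21.5 and 21.2 CPM in 3D and 1.17, 1.71 and 1.04 CPM on plastic (4.15 ± 0.62). TAP1, which pumps peptides into the endoplasmic reticulum, rose by 2.50, the trimming enzyme ERAP1 by 2.08, the class I transactivator NLRC5 by 1.86 and the chaperone TAPBP by 1.14 on the log2 scale. None of 9 class II genes was called, though their median log2 fold change was 0.93. The 12 class II genes listed summed to 48.8, 66.7 and 65.3 CPM in 3D and 32, 37.6 and 32.1 CPM on plastic. HLA-DRB1 stood at 18.9, 25.6 and 25.6 CPM in 3D and 13.1, 12.6 and 11 CPM on plastic (0.93, adjusted p = 0.0888, and 0.000455 by DESeq2). None of the 24 subunits of the proteasome core was called either.

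The RNAs of the mitochondrial genome changed in a pattern that matched their order on the genome, though the kind of RNA gives nearly the same split. All 13 mRNAs fell in 3D, each call held without any 1 library, and their summed level was 3520, 2860 and 2530 CPM in 3D and 19000, 20400 and 18200 CPM on plastic. That is 0.352%, 0.286% and 0.253% of the TMM-scaled library size in 3D and 1.9%, 2.04% and 1.82% on plastic. Both ribosomal RNAs rose, and summed to 4920, 9060 and 8420 CPM in 3D and 2170, 2070 and 2110 CPM on plastic. For all 15 genes the response of OVCAR8 differed from that of the other lines.

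MT-ND4, a subunit of complex I, stood at 345, 302 and 245 CPM in 3D and 3086, 3178 and 2912 CPM on plastic (log2 fold change -3.36 ± 0.14 SE, adjusted p = 7.19e-11). MT-CO3 of complex IV stood at 165, 147 and 120 CPM in 3D and 1452, 1780 and 1410 CPM on plastic (-3.43 ± 0.16, adjusted p = 1.21e-10). MT-CO1 of the same complex stood at 941, 901 and 807 CPM in 3D and 4715, 5354 and 4600 CPM on plastic (-2.47 ± 0.12, adjusted p = 1.54e-10). The level in every 3D library, replicate 4 included, was far below every plastic library. MT-ND3 fell by 3.74 on the log2 scale and was the largest fall among the mRNAs, and MT-ATP8 fell by 3.49. MT-ND1, the mRNA nearest to the ribosomal RNAs, stood at 483, 289 and 288 CPM in 3D and 1201, 881 and 1080 CPM on plastic, the smallest fall (-1.58 ± 0.18), and MT-ND6, which lies on the other strand, fell by 1.82 (83.4, 78.3 and 71.6 CPM in 3D and 268, 304 and 253 CPM on plastic). MT-RNR1, the small ribosomal RNA, stood at 3134, 5890 and 5607 CPM in 3D and 792, 778 and 778 CPM on plastic (2.64 ± 0.23, adjusted p = 6.05e-07), and MT-RNR2, the large one, at 1783, 3167 and 2811 CPM in 3D and 1379, 1294 and 1337 CPM on plastic (0.95 ± 0.18, adjusted p = 0.00204). Both ribosomal RNAs were lowest in 3D replicate 4 and still above plastic there.

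In genome order the 4 genes that rose are the first 4: MT-TF, MT-RNR1, MT-TV and MT-RNR2. The transfer RNA gene MT-TF stood at 168, 254 and 258 CPM in 3D and 32.3, 27.9 and 34.1 CPM on plastic (log2 fold change 2.85), and MT-TV at 87.6, 108 and 109 CPM in 3D and 42.9, 40.7 and 41 CPM on plastic (1.29). The next gene, MT-TL1, stood at 5.62, 3.46 and 3.24 CPM in 3D and 20.3, 14.7 and 18.6 CPM on plastic (-2.12). Of 21 transfer RNA genes tested 2 rose, 18 fell and 1 was not called, and in genome order the sign turned between MT-RNR2 and MT-TL1. Libraries were made from polyadenylated RNA, and reads over a transfer RNA gene may come from its neighbors or from uncut precursors. MT-TF and MT-TV both adjoin MT-RNR1. A split by place therefore cannot be told apart from a split between ribosomal RNAs and the other RNAs. Copies of mitochondrial genes in the nuclear genome share these reads: 18 of 24 such copies tested fell and none rose, as MTCO1P12 on chromosome 1 at 210, 199 and 185 CPM in 3D and 1045, 1207 and 1025 CPM on plastic (-2.46), so each copy cannot be told apart from the gene it resembles.

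**Figure D3:**
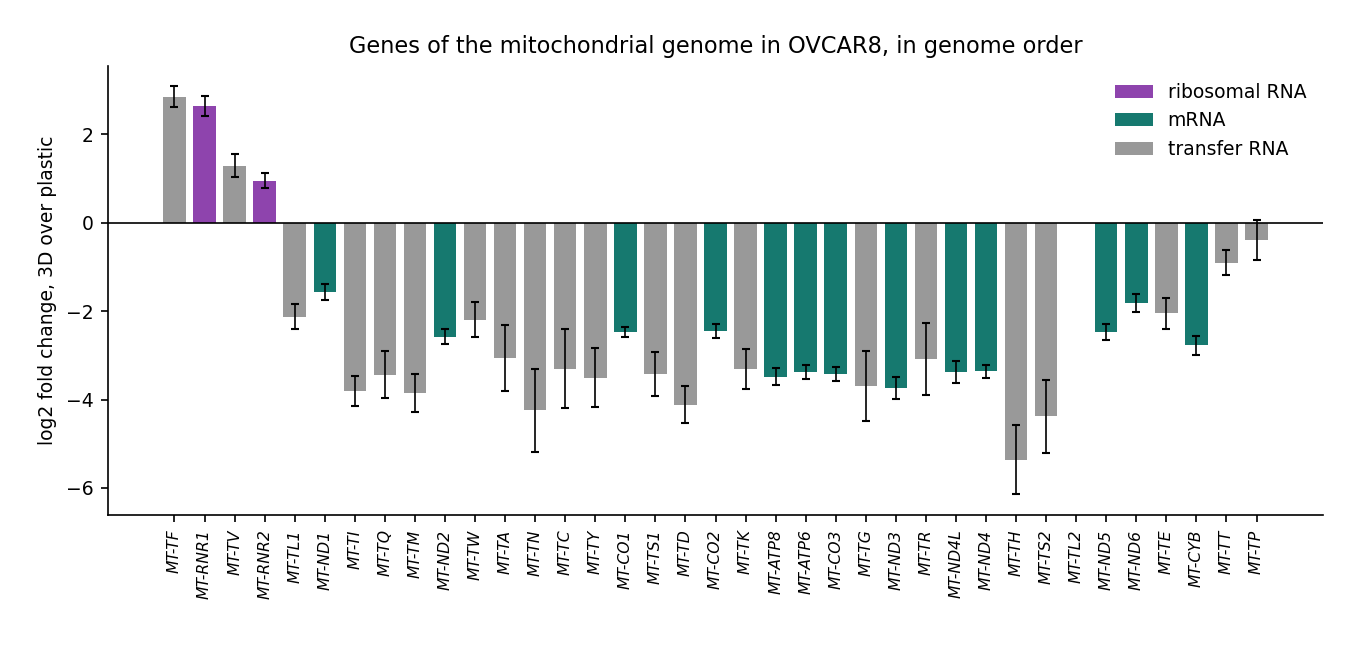
Log2 fold change (3D over plastic) of the genes of the mitochondrial genome in OVCAR8, in genome order from left to right, with 1 SE. The first 4 bars, MT-TF, MT-RNR1, MT-TV and MT-RNR2, lie above 0 (2.85, 2.64, 1.29 and 0.95), and every bar to their right lies below it, though MT-TP, at the far right, did not pass the test. MT-TL2 was not tested and has no bar.

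Nuclear genes of the same organelle moved little. Of 37 nuclear subunits of oxidative phosphorylation none rose and 4 fell, none by 2-fold (median log2 fold change -0.26). Of 19 genes of mitochondrial RNA metabolism 1 rose, a share near the 6.39% of all genes at 1 CPM or more on plastic that rose. It was PNPT1, which encodes a ribonuclease of mitochondrial RNA and is also a known interferon target. It stood at 211, 137 and 131 CPM in 3D and 86, 75.5 and 90.1 CPM on plastic (0.93 ± 0.21 SE, adjusted p = 0.00823), highest in 3D replicate 4. The mitochondrial RNA polymerase POLRMT stood at 50.4, 47.1 and 51 CPM in 3D and 49.1, 43 and 42.5 CPM on plastic (0.14, adjusted p = 0.619), and the transcription and packaging factor TFAM at 119, 89 and 92 CPM in 3D and 129, 133 and 144 CPM on plastic (-0.44, adjusted p = 0.118). Neither passed the test, though TFAM did without 3D replicate 4 (-0.58, adjusted p = 0.0427).

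Sterol genes fell. Of 26 genes of cholesterol synthesis and uptake at 1 CPM or more on plastic, 16 fell, 6 of them by at least 2-fold, 1 rose and 9 were not called, with a median log2 fold change of -0.77 against -0.038 over genes at that level. Of the falls 9 held without any 1 library. IDI1, an isomerase early in the isoprenoid pathway, stood at 74.8, 46.4 and 48.9 CPM in 3D and 185, 204 and 193 CPM on plastic (-1.77 ± 0.20 SE, adjusted p = 1.8e-05). SQLE, the epoxidase that commits squalene to sterols, stood at 63.1, 46.4 and 48.1 CPM in 3D and 126, 135 and 132 CPM on plastic (-1.32 ± 0.19, adjusted p = 0.000196). Both falls were smaller in 3D replicate 4 than in replicates 61 and 62. INSIG1, which holds the sterol sensor in place, stood at 12, 10.3 and 9.42 CPM in 3D and 27.3, 36.7 and 26.1 CPM on plastic (-1.51). ABCA1, which exports cholesterol, went the other way, at 30.5, 40.5 and 38.7 CPM in 3D and 6.87, 13.3 and 8.88 CPM on plastic (1.92 ± 0.33, adjusted p = 0.00144). None of 17 genes of fatty acid synthesis was called.

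Genes of the cell cycle fell in part, those of G2 and mitosis all by less than 2-fold. Of 36 genes of G2 and mitosis 19 fell and none rose (median log2 fold change -0.50), and 6 of the falls held without any 1 library. AURKA, a spindle kinase, stood at 135, 97.3 and 98 CPM in 3D and 183, 183 and 187 CPM on plastic (-0.74 ± 0.14 SE, adjusted p = 0.00234), and KIF20A, a kinesin of cytokinesis, at 151, 107 and 107 CPM in 3D and 209, 219 and 214 CPM on plastic (-0.81 ± 0.16, adjusted p = 0.0036). The kinesin KIF2C fell by 0.62, BIRC5 of the chromosomal passenger complex by 0.82 and cyclin B1, CCNB1, by 0.66. MKI67, the proliferation marker, stood at 409, 333 and 328 CPM in 3D and 470, 462 and 463 CPM on plastic without a call (-0.38, adjusted p = 0.218). In each of these genes 3D replicate 4 lay between the other 3D libraries and plastic. Of 40 genes of G1/S and DNA replication at 1 CPM or more 13 fell and none rose, among them UNG, which removes uracil from DNA (137, 87.3 and 89.5 CPM in 3D and 189, 174 and 182 CPM on plastic, -0.80). Of 13 histone genes at 1 CPM or more 7 fell and 1 rose. The fall of the variant H2AZ2 (158, 130 and 127 CPM in 3D and 204, 209 and 207 CPM on plastic, -0.58) was free of overlap. For 1 of the 36 genes of G2 and mitosis the response differed from the other lines. Of 29 DNA repair genes 1 fell, a share near that of all genes.

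Part of the unfolded protein and integrated stress response rose: 15 of 30 genes, 5 of them by at least 2-fold, with none falling and 7 calls held without any 1 library (median log2 fold change 0.50). HSPA5, the main chaperone of the endoplasmic reticulum, stood at 1118, 1002 and 995 CPM in 3D and 584, 593 and 593 CPM on plastic (0.82 ± 0.09 SE, adjusted p = 1.62e-05). Its rise was alike in the 3 3D libraries. Targets of the factor ATF4 were split by library. CHAC1, which degrades glutathione, stood at 9.01, 28.4 and 27.8 CPM in 3D and 3.26, 3.58 and 2.94 CPM on plastic (2.74 ± 0.34, adjusted p = 4.48e-05). SESN2, which restrains mTORC1, stood at 25.8, 45.4 and 45.6 CPM in 3D and 15.4, 16 and 15.5 CPM on plastic (1.31 ± 0.18), and the pseudokinase TRIB3 at 24.2, 49 and 48.4 CPM in 3D and 17.5, 17.8 and 15.5 CPM on plastic (1.26 ± 0.24). In 3D replicates 61 and 62 these genes stood well above 3D replicate 4, which still stood above plastic. The same order held for PSAT1 of serine synthesis (180, 329 and 327 CPM in 3D and 141, 162 and 143 CPM on plastic, 0.91), for ALDH1L2 of mitochondrial folate metabolism (45.5, 129 and 124 CPM in 3D and 18.8, 27 and 19.4 CPM on plastic, 2.19) and for the angiogenic factor VEGFA (20.3, 56.3 and 53.2 CPM in 3D and 13.7, 14.8 and 12.7 CPM on plastic, 1.66). MTHFD1L, also of the folate cycle, rose by 0.58, while PRPS1, which feeds nucleotide synthesis, fell by 0.73. ASNS, asparagine synthetase, stood at 50.3, 193 and 185 CPM in 3D and 22.2, 39.7 and 23.7 CPM on plastic (2.32, adjusted p = 0.0115), a call that ended without 3D replicate 61 (adjusted p = 0.0581), 3D replicate 62 (0.0557), plastic replicate 4 (0.0692) or plastic replicate 62 (0.0668). The rise of DDIT3 (0.99) likewise ended without 3D replicate 61 (0.0696), 3D replicate 62 (0.0539), plastic replicate 4 (0.0543) or plastic replicate 62 (0.0555). ATF4 itself stood at 314, 374 and 368 CPM in 3D and 313, 287 and 298 CPM on plastic (0.23, adjusted p = 0.397). WARS1, a transfer RNA synthetase that interferon is also known to induce, rose evenly, at 247, 243 and 238 CPM in 3D and 110, 109 and 110 CPM on plastic (1.14 ± 0.16, adjusted p = 0.000155). Heat shock chaperones did not follow: 4 of 21 at 1 CPM or more fell and none rose. HSP90AA1 stood at 3778, 1847 and 1796 CPM in 3D and 5043, 4640 and 5405 CPM on plastic (-1.02, adjusted p = 0.0106), a call that ended without 3D replicate 61 (0.0819) or 62 (0.0804).

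Inflammatory genes rose in part. Of 10 chemokines and cytokines at 1 CPM or more on plastic 4 rose, of 21 NF-kB pathway genes 9 rose, and of 11 complement genes 7 rose, with no fall. CSF1, the growth factor of macrophages, stood at 13, 12.4 and 11.7 CPM in 3D and 1.95, 2.56 and 1.96 CPM on plastic (log2 fold change 2.52 ± 0.16 SE, adjusted p = 6.46e-09). CXCL2, a chemokine for neutrophils, stood at 10.4, 7.36 and 6.22 CPM in 3D and 2.42, 1.18 and 2.02 CPM on plastic (2.08 ± 0.37, adjusted p = 0.00147). Neither was lower in 3D replicate 4 than in the other 3D libraries. Under 1 CPM on plastic, CXCL8, of the same family as CXCL2, stood at 3.88, 7.88 and 6.1 CPM in 3D and 0.291, 0.296 and 0.346 CPM on plastic (4.24), and IL15, which sustains natural killer cells, at 2.6, 2.97 and 2.98 CPM in 3D and 0.612, 1.02 and 0.75 CPM on plastic (1.85). IL6 stood at 8.44, 25.9 and 19.5 CPM in 3D and 8.56, 3.45 and 8.31 CPM on plastic with overlap and no call (1.40, adjusted p = 0.0692), and was called without 3D replicate 4 (1.74, adjusted p = 0.0159). CXCL10, a chemokine induced by interferon, had no count on plastic and 0.651, 0.878 and 0.599 CPM in 3D, at least 23.3-fold higher when plastic is taken at a limit of 3 counts summed over its 3 libraries.

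Among the regulators of NF-kB, the noncanonical subunit RELB stood at 6.84, 9.76 and 9.5 CPM in 3D and 2.56, 3.12 and 2.02 CPM on plastic (1.76 ± 0.26 SE, adjusted p = 0.000316), and the atypical inhibitor BCL3 at 5.67, 7.8 and 8.04 CPM in 3D and 1.66, 2 and 1.88 CPM on plastic (1.96 ± 0.25, adjusted p = 6.8e-05). TNFAIP3, the deubiquitinase that ends the signal, stood at 6.43, 11.7 and 9.86 CPM in 3D and 1.46, 1.61 and 1.82 CPM on plastic (2.52), BIRC3, a ubiquitin ligase of the TNF receptor, at 5.59, 7.02 and 5.95 CPM in 3D and 1.57, 1.28 and 1.33 CPM on plastic (2.15), and TNFAIP2 at 15.6, 31.5 and 30.6 CPM in 3D and 8.77, 11.2 and 8.16 CPM on plastic (1.47). All 5 were free of overlap. The proteases of the first complement component, C1R and C1S, stood at 55.7, 90.5 and 81.8 CPM and at 22.8, 62.1 and 47.4 CPM in 3D, against 16.9, 19.9 and 17.2 CPM and 5.97, 5.75 and 6.17 CPM on plastic (2.08 ± 0.24 and 2.89 ± 0.38). Their relative C1RL rose by 1.90 and their inhibitor SERPING1 by 2.72. Of the genes under 1 CPM on plastic, the alternative pathway factor CFB stood at 9.85, 45.5 and 32.9 CPM in 3D and 0.437, 0.493 and 0.231 CPM on plastic (6.25), and C3, the central component, at 3.93, 68.4 and 44.3 CPM in 3D and 0.204, 0.0329 and 0.231 CPM on plastic (7.89, and 7.21 without 3D replicate 61). The complement genes were lowest in 3D replicate 4, where the fibroblast markers were also lowest, and the part of fibroblast RNA in them was not tested.

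Death and immune recognition genes followed in small numbers. Of 21 genes of cell death at 1 CPM or more 6 rose and 1 fell. CASP4, the caspase that senses bacterial lipid, stood at 120, 112 and 110 CPM in 3D and 53.8, 61 and 52.9 CPM on plastic (1.03 ± 0.18 SE, adjusted p = 0.0013), and CASP1 of the inflammasome at 2.47, 2.94 and 3.29 CPM in 3D and 0.0583, 0.394 and 0.173 CPM on plastic (3.81, and 4.63 without plastic replicate 61). ULBP1, a ligand of the natural killer receptor NKG2D, stood at 8.66, 24.1 and 21.9 CPM in 3D and 4.4, 7.42 and 5.42 CPM on plastic (1.67 ± 0.32, adjusted p = 0.0025), and PVR, a ligand of DNAM-1 and TIGIT, rose by 0.62. TYMP, thymidine phosphorylase, stood at 45.9, 43.8 and 46.8 CPM in 3D and 6.03, 5.26 and 4.21 CPM on plastic (3.14 ± 0.51, adjusted p = 0.00102). CASP4 and TYMP were level across the 3 3D libraries, while ULBP1 was lowest in replicate 4.

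**Figure D4:**
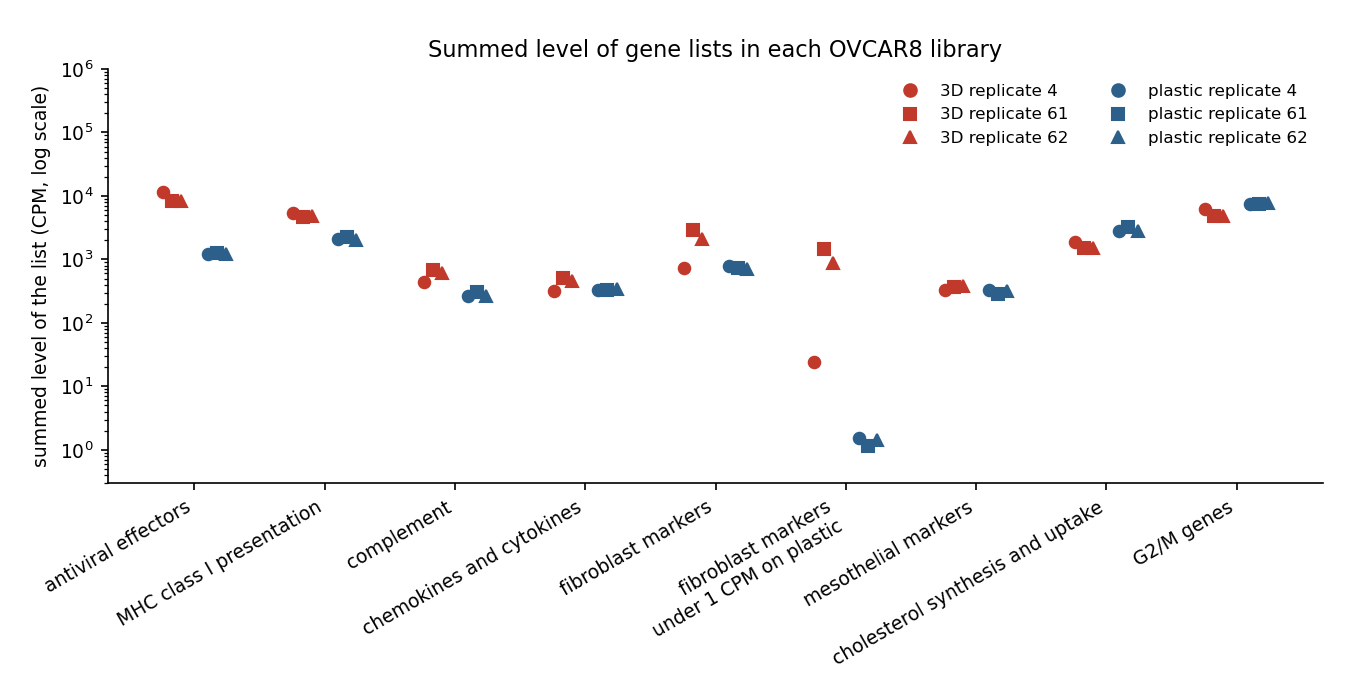
Summed level (CPM, log axis) of gene lists in each OVCAR8 library, 3D left of plastic for each list, with a symbol for each replicate. Antiviral effectors sum to 11600, 8210 and 8320 CPM in 3D and 1210, 1250 and 1200 CPM on plastic, and 3D replicate 4 is the highest of the 3. For the fibroblast markers under 1 CPM on plastic it is the lowest 3D library at 24.4 CPM, above the 1.15 to 1.51 CPM of the plastic libraries. These markers were picked by their level in the same plastic libraries.

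Matrix genes fell into those with a level on plastic and those without. Of 39 matrix glycoproteins at 1 CPM or more on plastic 13 rose, none fell, and 9 held without any 1 library. TNC, tenascin C, stood at 33.1, 71.1 and 61.1 CPM in 3D and 12.2, 13.8 and 13.4 CPM on plastic (log2 fold change 2.07 ± 0.30 SE, adjusted p = 0.000226). AGRN, a heparan sulfate protein of basement membranes, stood at 388, 448 and 509 CPM in 3D and 240, 212 and 194 CPM on plastic (1.06 ± 0.19, adjusted p = 0.00149). Both were lowest in 3D replicate 4 and above plastic there. IGFBP6 rose by 1.77, the basement membrane linker NID1 by 1.30 and the TGF-beta binding protein LTBP2 by 2.25. Of 14 integrins at 1 CPM or more 5 rose: ITGA3, the laminin receptor chain, stood at 708, 695 and 694 CPM in 3D and 316, 378 and 306 CPM on plastic (1.07 ± 0.14, adjusted p = 7.03e-05), ITGA2 of the collagen receptor rose by 2.27 and ITGA5 of the fibronectin receptor by 1.02. Of 32 matrix regulators at 1 CPM or more 10 rose and 1 fell. P4HA2, a collagen prolyl hydroxylase, stood at 31.6, 53.4 and 48.4 CPM in 3D and 19, 27.7 and 20.5 CPM on plastic (0.99), TIMP1, an inhibitor of metalloproteinases, at 85.2, 234 and 183 CPM in 3D and 60.7, 58.9 and 55.7 CPM on plastic (1.52), and the urokinase PLAU at 111, 97.8 and 104 CPM in 3D and 49.8, 47.2 and 49 CPM on plastic (1.10). The member that fell was MMP1, the interstitial collagenase, at 11.6, 5.86 and 4.94 CPM in 3D and 40.5, 120 and 44 CPM on plastic (-3.20 ± 0.57, adjusted p = 0.00227), and -2.48 without plastic replicate 61, the highest library. Of 16 collagens at 1 CPM or more 2 rose and 1 fell, where 6.39% and 4.53% of all genes at that level did. COL16A1 stood at 4.34, 17.4 and 13 CPM in 3D and 2.33, 2.89 and 3 CPM on plastic (2.08), and COL4A4 of basement membrane at 1.52, 2.32 and 1.92 CPM in 3D and 5.53, 3.48 and 4.67 CPM on plastic (-1.25, adjusted p = 0.04), a call that ended without any 1 of the 6 libraries (adjusted p of 0.0518 to 0.154).

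The genes of the matrix, complement and cytokine lists with no count on plastic include known fibroblast genes, and their level split the 3D libraries. The collagen chain COL1A2 had no count on plastic and stood at 8.33, 599 and 367 CPM in 3D, at least 11000-fold higher (adjusted p = 0.00269), and at least 276-fold in 3D replicate 4 alone. Its partner COL1A1, which OVCAR8 expresses on plastic, stood at 647, 1386 and 1097 CPM in 3D and 694, 640 and 630 CPM on plastic with overlap and no call (log2 fold change 0.67, adjusted p = 0.53). In 3D replicate 4 the partner was thus within the range of plastic while COL1A2 was above 0. COL3A1 stood at 12.4, 793 and 466 CPM in 3D and 0.0874, 0 and 0.115 CPM on plastic (12.49, and 11.66 without 3D replicate 61), and COL5A1 at 1.33, 54.7 and 34.2 CPM in 3D and 0.146, 0.0657 and 0.0865 CPM on plastic (8.18, and 7.42 without it). MXRA5 was at least 1270-fold higher in 3D, the gelatinase MMP2 at least 1030-fold, the alarmin IL33 at least 468-fold, the organic cation transporter SLC22A3 at least 211-fold, CHI3L1 at least 186-fold, the chemokine CCL2 at least 151-fold and the cyclin CCND2 at least 36.4-fold. In 3D replicate 4 alone these bounds were at least 65.7-fold for MXRA5, 28.8 for MMP2, 17.1 for IL33, 10.8 for SLC22A3, 9.89 for CHI3L1, 11.7 for CCL2 and 9.89 for CCND2, more than an order of magnitude below those of 3D replicate 61 for all of these except CCND2 (66.8-fold there). Fitted on the 6 OVCAR8 libraries alone, all of these but CCND2 lost their call, with adjusted p-values of 0.0996 for COL1A2, 0.11 for MXRA5, 0.129 for MMP2, 0.125 for IL33, 0.0749 for SLC22A3, 0.0796 for CHI3L1 and 0.054 for CCL2.

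Genes with 1 or 2 counts on plastic were split in a like way. The surface protein CDCP1 had 26, 384 and 291 counts in 3D and 1 on plastic, a ratio of 562 with a 95% exact interval for counting error of 101 to 22200. IGFBP7 had 21, 950 and 889 counts in 3D and 2 on plastic, a ratio of 746 (206 to 6160), and fibromodulin, FMOD, had 11, 371 and 298 counts in 3D and 1 on plastic, a ratio of 545 (97.6 to 21600). In all 3 genes 3D replicate 4 was the lowest of the 3D libraries by far. The receptor PDGFRA, which marks fibroblasts, stood at 0.977, 17.5 and 9.17 CPM in 3D and 0.175, 0.0329 and 0.202 CPM on plastic (log2 fold change 6.01, and 5.16 without 3D replicate 61), and THY1, another fibroblast marker, at 0.353, 9.43 and 6.55 CPM in 3D and 0.0583, 0.197 and 0.0288 CPM on plastic (5.86, 5.23 without 3D replicate 61 and 6.89 without plastic replicate 61). Of 16 fibroblast markers tested 7 rose, all of them under 1 CPM on plastic, and none of the 6 at 1 CPM or more did. How much of these RNAs came from omental fibroblasts in the sorted cells was not tested.

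**Figure D5:**
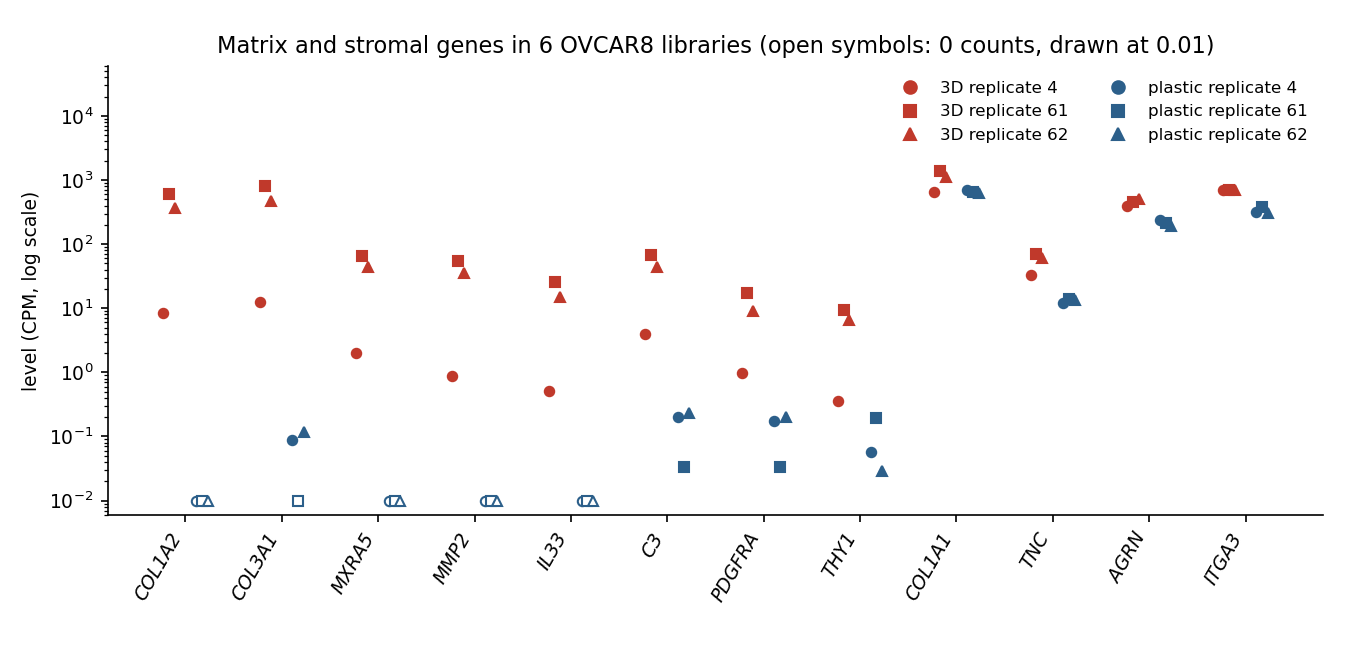
Level (CPM, log axis) of matrix and stromal genes in each OVCAR8 library, 3D left of plastic for each gene, with a symbol for each replicate and open symbols at 0.01 for libraries with no count. Genes silent on plastic such as COL1A2 (8.33, 599 and 367 CPM in 3D) spread over more than an order of magnitude among the 3D libraries. TNC, AGRN, ITGA3 and COL1A1, with a level on plastic, spread less. TNC (33.1, 71.1 and 61.1 CPM in 3D) and COL1A1 (647, 1386 and 1097 CPM) were also lowest in 3D replicate 4.

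Of 12 mesothelial markers tested 3 rose and none fell, and neither of the 2 that rose at 1 CPM or more on plastic held without any 1 library. LRRN4 stood at 6.57, 5.47 and 6.67 CPM in 3D and 3.35, 3.55 and 3 CPM on plastic (log2 fold change 0.92, adjusted p = 0.0104, and 0.055 without 3D replicate 62 or 0.0649 without plastic replicate 62). CALB2, calretinin, stood at 2.28, 3.33 and 3.99 CPM in 3D and 0.932, 1.18 and 0.894 CPM on plastic (1.68, adjusted p = 0.0247, and 0.0543 to 0.125 without any 1 library other than 3D replicate 4). PRG4, the lubricant lubricin, stood at 0.244, 2.81 and 1.61 CPM in 3D and 0, 0 and 0.0288 CPM on plastic (adjusted p = 0.00332). The groups did not overlap in these genes, and how much of these RNAs came from mesothelial cells in the sorted cells was not tested. The mesothelial genes MSLN and BNC1, which OVCAR8 expresses on plastic, were not called. MSLN stood at 147, 185 and 194 CPM in 3D and 125, 131 and 112 CPM on plastic (log2 fold change 0.52, adjusted p = 0.0663, and 0.63 with 0.0286 without 3D replicate 4), and BNC1 at 50.2, 45.6 and 44.9 CPM in 3D and 50.3, 43.3 and 49.8 CPM on plastic (-0.03, adjusted p = 0.972). CD68, a lysosomal membrane protein used as a marker of macrophages, stood at 94.4, 81.8 and 81.7 CPM in 3D and 22.6, 22 and 20 CPM on plastic (2.00 ± 0.26 SE, adjusted p = 8.46e-05), while the pan-leukocyte gene PTPRC had 1 count in the 6 libraries together. Other lysosomal genes rose in 10 of 30 cases with no fall, 5 of them held without any 1 library. The protease CTSL stood at 143, 123 and 126 CPM in 3D and 53.8, 54.9 and 49.7 CPM on plastic (1.31 ± 0.17, adjusted p = 6.97e-05), the peptidase TPP1 at 68.1, 90 and 85.1 CPM in 3D and 45.9, 50 and 44.5 CPM on plastic (0.79), and CTSB rose by 0.95. Replicate 4 was the highest 3D library for CD68 and CTSL and the lowest for TPP1.

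Growth factor pathways showed scattered calls. The lymphatic growth factor VEGFC stood at 4.75, 5.16 and 5.29 CPM in 3D and 1.6, 1.38 and 1.73 CPM on plastic (log2 fold change 1.69 ± 0.23 SE, adjusted p = 0.000123), whereas FGF18 stood at 0.895, 0.93 and 0.847 CPM in 3D and 2.1, 1.64 and 2.28 CPM on plastic (-1.18 ± 0.21, adjusted p = 0.00189). TGFBR2, a receptor of TGF-beta, rose by 0.64 as the 1 gene called of 16 at 1 CPM or more in its list, a share near the 6.39% of all genes at that level that rose. ERRFI1, a feedback inhibitor of the EGF receptor, rose by 0.80. SMAD6, an inhibitor of BMP signals and itself a target of them, stood at 1.41, 0.542 and 0.599 CPM in 3D and 3.2, 1.71 and 3.55 CPM on plastic (-1.76 ± 0.31, adjusted p = 0.00145), and was 1 of 3 genes that fell among 13 of the BMP pathway. Of 24 YAP and TAZ targets at 1 CPM or more 1 fell, a share near the 4.53% of all genes at that level. It was AJUBA, at 144, 150 and 159 CPM in 3D and 257, 234 and 237 CPM on plastic (-0.68). CDH2, the cadherin of this line, stood at 164, 153 and 148 CPM in 3D and 163, 136 and 166 CPM on plastic without a call.

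The largest falls among genes at 1 CPM or more on plastic were mitochondrial RNAs and their nuclear copies, apart from MMP1 and VGLL2. VGLL2, a cofactor of TEAD factors, stood at 0.244, 0.181 and 0.227 CPM in 3D and 2.1, 2.04 and 1.96 CPM on plastic (log2 fold change -3.20 ± 0.37 SE, adjusted p = 9.14e-05). The falls that follow were chosen after their values were seen. ATOH8, a basic helix-loop-helix factor, fell by 2.35, ITIH3, which binds hyaluronan, by 2.33, GDA, guanine deaminase, by 2.03, the scavenger receptor OLR1 by 1.71 and the secreted peptide gene KISS1 by 1.60. PPME1, which demethylates the phosphatase PP2A, was the most abundant of them, at 650, 445 and 435 CPM in 3D and 1851, 1385 and 1826 CPM on plastic (-1.73 ± 0.15, adjusted p = 5.12e-07). The long noncoding RNA DANCR stood at 38.2, 26.5 and 27.3 CPM in 3D and 102, 97.8 and 99 CPM on plastic (-1.70 ± 0.18, adjusted p = 5.04e-06). Groups did not overlap for these genes, which was a condition of the rule that took VGLL2. Whether reads were counted by strand is not known here, so genes that overlap another gene could share its reads.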

How the data were processed

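Polyadenylated RNA of the 18 libraries was sequenced after preparation with a stranded kit. The authors deposited whole-number counts of reads per gene for each library, without scaling. Per the submitters' processing notes and the methods of the study, reads were trimmed with Trimmomatic 0.33, aligned to GRCh38 with TopHat2 2.1.0, using GENCODE 25 gene models, and counted with HTSeq, and the authors tested with DESeq2 1.12.3. For the strand setting of the counting, the labels and methods name none. Each table held 58288 Ensembl IDs, of which 57532, with 99.75% of all counts, matched a name in GENCODE 44. SOD2 matched none and was left out of its list.

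Counts of all 18 libraries entered 1 edgeR 4.0.16 model (R 4.3.3, limma 3.58.1) of 6 groups, with TMM factors, filterByExpr (minimum count 10, minimum total 15) and robust quasi-likelihood F-tests of the contrast 3D minus plastic in OVCAR8. P-values were adjusted by Benjamini-Hochberg over all 22023 genes tested and called under 0.05, with and without a 2-fold minimum. A second contrast set this difference against its mean in Kuramochi and OVCAR4. Levels are CPM with TMM-scaled library sizes, and SE values are on the log2 scale. Where plastic had no count, folds were taken against 3 counts in its libraries together, and the exact 95% intervals of count ratios cover counting error only. The depth of 29988250 to 43142540 counts per library made 1 CPM about 30 reads or more. The pipeline was tested on simulated data.

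The members, gene lists and rules were chosen with earlier results of these data known. The rule for named genes took the 25 largest rises and falls at 1 CPM or more on plastic and the 15 largest rises under it, free of overlap and held without any 1 library, and 4 called members of each list. Some genes that this rule takes are not reported here. Genes that describe a pathway by role (ligands, receptors, markers) were added whether called or not. HLA-B, ASNS, INSIG1, HSP90AA1, PLAU, NID1, LTBP2, TRIB3, PSAT1, DDIT3, CCNB1, CFB, C3, the falls marked in the text and the sums of markers under 1 CPM on plastic were chosen after their values were seen. Promoters are from RefSeq on GRCh38.p14. Alternatives were DESeq2 1.42.0, RLE factors, no low-count filter, OVCAR8 alone, a replicate block, close libraries summed, a test against 2-fold, a minimum of 5 CPM and leaving out each library. Columns of other lines entered the model only. Tumor samples were not analysed here.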

Additional observations from a re-analysis of the deposited data

Results flagged for a closer look

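For the genes named above, the change in OVCAR8 was set against the mean change in Kuramochi and OVCAR4 by a contrast of the same fit, adjusted over all genes tested. The values in this part are that difference on the log2 scale, the OVCAR8 log2 fold change minus the mean log2 fold change of the other lines, for every named gene at an adjusted p under 0.05. All lines share the same kind of culture but each has its own plastic controls.

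Among the antiviral effectors the difference was 6.54 for OAS3, 6.88 for MX1, 6.36 for IFI27, 6.65 for IFI6, 5.55 for IFITM1, 4.67 for ISG15, 3.98 for IFIT1, 3.68 for IFIT3, 4.78 for PARP9, 3.81 for PARP14 and 3.48 for DTX3L. It was 3.22 for SAMD9L, 3.16 for GBP1, 2.2 for APOL6, 3.24 for HERC6 and 3.94 for IFI35. Further values were 3.24 for SHFL, 3.66 for SP110, 2.23 for HELZ2, 8.35 for OAS1 and 8.05 for RSAD2. For TRANK1 and PARP10, which are not on the list of effectors, the difference was 3.45 and 4.24. HERC5, which was not called within OVCAR8, differed by 1.88.

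In interferon signaling and sensing the difference was 1.33 for STAT2, 2.53 for IRF9, 4.1 for IRF7, 3.28 for BATF2, 4.74 for USP18, 4.99 for IFIH1, 2.54 for RIGI, 3.13 for IFI16, 1.68 for EIF2AK2, 0.87 for TRIM25, 0.84 for ADAR and 6.75 for CXCL10. It was negative for IFNAR1 (-0.8) and JAK1 (-0.66), neither of them called within OVCAR8. In class I presentation it was 1.59 for HLA-C, 1.99 for B2M, 1.26 for ERAP1, 4.04 for PSMB9 and 1.19 for NLRC5. CASP1 and CASP4 differed by 3.95 and 0.76.

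The mitochondrial mRNAs gave a negative difference, -3.27 for MT-ND3, -3.71 for MT-ATP8, -3.08 for MT-CO3, -3.33 for MT-ND4, -2.55 for MT-CO1, -1.28 for MT-ND1 and -1.57 for MT-ND6, with -1.93 for MT-TL1 and -2.5 for the nuclear copy MTCO1P12. The difference was 2.87 for MT-RNR1, 0.94 for MT-RNR2, 2.74 for MT-TF and 1.13 for PNPT1.

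Of 29 sterol genes 5 differed from the other lines, with a difference of -1.06 for IDI1 and -0.89 for SQLE. In the stress response and its metabolism the difference was 2.94 for CHAC1, 1.09 for SESN2, 1.46 for TRIB3, 0.5 for HSPA5, 1.05 for DDIT3, 1.48 for PSAT1, 2.6 for ASNS, 1.24 for VEGFA and 0.68 for MTHFD1L.

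Among matrix, complement and cytokine genes the difference was 11.43 for MMP2, 12.56 for IL33, 9.36 for CCL2, 9.19 for CHI3L1, 8.85 for IGFBP7 and 6.78 for COL5A1. MMP2, IL33, CCL2, CHI3L1 and CXCL10 had no count on OVCAR8 plastic, so their values depend on the prior count of the fit and are no bound. The difference was 2.79 for CFB, 0.93 for C1RL, 1.56 for SERPING1, 1.21 for CSF1, 3.05 for CXCL8 and 0.86 for AGRN. It was -3.77 for COL1A1, -5.32 for MMP1 and -1.79 for COL4A4, and -2.02 and -3.64 for the mesothelial genes BNC1 and CALB2.

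Of the remaining genes, CTSL differed by 1.73, ERRFI1 by 0.63, FGF18 by -0.95, SMAD6 by -1.39, AJUBA by -0.72, ATOH8 by -2.01, GDA by -1.78, PPME1 by -1.59, DANCR by -0.89 and OLR1 by -4.42.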

How the results depend on the processing

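The 2385 genes called at any fold became 5585 with the 6 OVCAR8 libraries fitted alone, 544 with close libraries summed as 1 sample, 1032 with only 3D replicates 61 and 62 summed (an alternative chosen after seeing the data) and 329 with a test against a 2-fold change. Rises of at least 2-fold, 1130, became 1785 without the filter on low counts, 417 with close libraries summed, 665 with 3D replicates 61 and 62 summed and 284 with the 2-fold test, and the 159 falls became 76, 98 and 45 under the last 3. At 1 CPM or more on plastic, the 466 rises and 122 falls became 193 and 66, 295 and 79, and 98 and 41 under the same 3 settings, and 197 and 75 at a minimum of 5 CPM. Leaving out 1 library gave 894 to 4352 genes called, 563 to 1847 rises and 91 to 278 falls, and at 1 CPM or more 268 to 739 rises and 77 to 212 falls. Genes whose response differed from the other lines, 1703, ranged from 637 to 1918. The highest of each came without 3D replicate 4. DESeq2 called 3249 genes and RLE factors 2427.

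Equal numbers did not pair the libraries (correlations of deviations of 0.0952, 0.106 and -0.0841 for 4, 61 and 62). A replicate block gave 3134 called genes, 1269 rises and 184 falls. Replicates 4 and 61 correlated best with their own number and replicate 62 did not.

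None of the 151 called among 172 named genes changed direction under any alternative listed here, while NT5C3A, MAVS, BNC1, KRT8 and CDH2, not called, took values on both sides of 0. Of the 151, 145 held without any 1 library, 38 lost the call with close libraries summed, 63 with the 2-fold test and 7 with OVCAR8 alone. At this depth 1 CPM is about 30 reads or more per library, so counting error weighs mainly on genes under 1 CPM.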
